A study of Homo sapiens with 6 samples.

Results

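Expression of 10 interleukin receptor chains was measured in L428, an established cell line of human Hodgkin lymphoma. Cells had received either an siRNA that targets BATF3 or a negative control siRNA. The chains are IL2RA, IL2RB, IL2RG, IL4R, IL6R, IL7R, IL10RA, IL13RA1, IL15RA and IL21R. They were listed by symbol, and every probe set that the PrimeView annotation gives to 1 of these symbols alone was taken. This gave 33 of 49393 probe sets and 10 of 18244 genes. Both groups were L428 cells nucleofected with 3 µg of siRNA and cultured for 48 hours, with 3 arrays for BATF3 siRNA and 3 for control siRNA. The factor BATF3, of the basic leucine zipper class, binds DNA together with JUN proteins and IRF factors. A single BATF3 siRNA was used in 1 cell line, and whether each replicate was its own culture is not stated in the labels, so the spread behind every p-value may be technical.

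Interleukin receptors are built from chains that bind the cytokine and chains that carry Janus kinases, and they signal through STAT factors. The common gamma chain IL2RG carries JAK3 and is shared by the receptors for IL-2, IL-4, IL-7, IL-9, IL-15 and IL-21. IL2RB is shared by the IL-2 and IL-15 receptors, and IL4R pairs either with IL2RG or with IL13RA1. Hodgkin lymphoma cells are known for active JAK and STAT signalling and for making cytokines to which they can themselves respond.

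The knockdown was visible on the arrays. BATF3 read 10.87, 10.76 and 10.69 on the BATF3 siRNA arrays, against 11.89, 12.08 and 11.94 on the control siRNA arrays (log2). Its ratio was 0.436 (95% confidence interval 0.376 to 0.506; limma adjusted p = 0.00673). All 10 Hodgkin lymphoma markers, among them TNFRSF8 and CCL17, read above background on all 6 arrays, while 0 of 8 T and NK cell markers, 1 of 7 myeloid markers (CD68) and 0 of 5 fibroblast markers did so. Of 5 B cell markers 2 did so, PAX5 and CD79B, while MS4A1, CD79A and CD22 were below background on every array. The highest background probe set read 6.68 to 7.18 on the BATF3 siRNA arrays and 7.11 to 7.32 on the control siRNA arrays. The GC-rich background probe sets, those with 20 to 25 G or C bases, averaged 5.92 (replicate 2) and 5.98 (replicate 3) in BATF3 siRNA, and between 6.46 and 6.49 on the other 4 arrays. The part of this background in the receptor values was not tested.

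Of the 10 chains, 7 read above the highest background probe set on all 6 arrays, where 42.8% of all genes did so. These were IL2RB, IL2RG, IL4R, IL10RA, IL13RA1, IL15RA and IL21R. IL2RA, IL6R and IL7R stayed below it on all 6 arrays with each of their probe sets. No chain changed past the threshold after BATF3 siRNA. Limma called 0 of 10, against 0.0164% of all genes, and the smallest adjusted p among the chains was 0.612. At an unadjusted p under 0.05 there was 1 chain, IL7R, against 7.15% of all genes. The groups did not overlap for 1 chain, IL2RB, against 12.1% of all genes. The median change was −0.013 for the chains and −0.0027 for all genes (log2), with 4 chains positive and 6 negative.

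The precision was similar for the 7 chains above background. Their 95% confidence intervals, each taken alone, lay between 0.756 times the control level, the lower bound for IL2RG, and 1.28 times, the upper bound for IL2RB. The ratio measured for BATF3 (0.436) lies outside this span. Such intervals cover the spread between these arrays and do not show that the chains were unaffected.

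**Figure D1:**
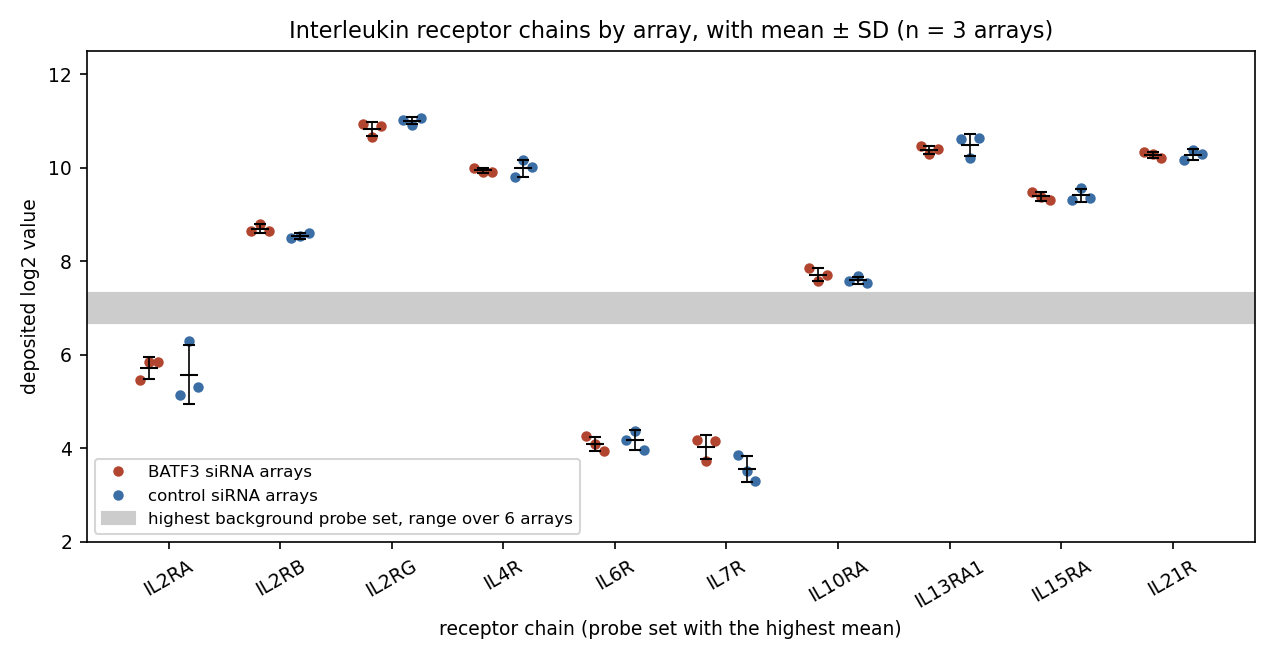
Deposited log2 values of the 10 receptor chains on each array, with the BATF3 siRNA arrays left of the control siRNA arrays and bars for the mean ± SD (n = 3 arrays a group). The grey band is the range of the highest background probe set over the 6 arrays (6.68 to 7.32), and 7 chains lie above it while IL2RA, IL6R and IL7R lie below it. Heights of different chains come from different probes and are not compared.

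The chains that bind and signal for IL-2 and IL-15 are described first, beginning with the common gamma chain. IL2RG read 10.94, 10.66 and 10.90 after BATF3 siRNA, against 11.02, 10.92 and 11.07 after control siRNA. The lowest of the 6 values was BATF3 siRNA replicate 2, and the groups overlapped because replicate 1 lay above control siRNA replicate 2. The change was −0.17 (SE 0.10), a ratio of 0.888 (95% confidence interval 0.756 to 1.04; limma adjusted p = 0.809). The probe set that stood for the gene belongs to a class, marked by the ending _x_at, whose probes may also match other sequences.

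IL2RG had 6 probe sets, which partly share a target and are not independent. All 6 were lower after BATF3 siRNA, by −0.24 to −0.092 (log2), and all 6 read above background on all 6 arrays. In 1 of them, 11754181_a_at, the groups did not overlap. It read 10.23, 10.13 and 10.20 after BATF3 siRNA, against 10.35, 10.51 and 10.41 after control siRNA, which is −0.24 on the log2 scale (SE 0.090; limma, adjusted over all probe sets, p = 0.647; exact permutation p = 0.1). It was 1 of 2 receptor probe sets among 33 without overlap, where 12.2% of all probe sets had none. In the other 5 the groups overlapped, and in each of these BATF3 siRNA replicate 2 was the lowest array. Without that array the change of the gene was −0.085. With the background as a block it was −0.063, a fit that sets BATF3 siRNA replicate 1 alone against the controls.

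IL2RB, the signalling chain that the IL-2 and IL-15 receptors share and that carries JAK1, had a single probe set. It read 8.65, 8.81 and 8.64 after BATF3 siRNA, against 8.49, 8.54 and 8.60 after control siRNA. Every BATF3 siRNA array lay above every control siRNA array, though the gap between 8.64 and 8.60 was small. The change was +0.15 (SE 0.090), a ratio of 1.11 (95% confidence interval 0.966 to 1.28; limma adjusted p = 0.805), and the exact permutation p of 0.1 was the smallest that the design allows. Over 19 alternatives the change stayed between 0.099 and 0.18. Several of these could not alter it: the choice of probe set, leaving out low genes, another prior and a block for replicate number. With each array left out in turn it ran over the same span.

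IL15RA, which binds IL-15 with high affinity and presents it to cells that carry IL2RB and IL2RG, read 9.49, 9.37 and 9.30 after BATF3 siRNA. The control siRNA arrays read 9.31, 9.56 and 9.36. The groups overlapped, and the change was −0.025 (SE 0.10), a ratio of 0.983 (95% confidence interval 0.838 to 1.15; limma adjusted p = 0.976). Its 3 probe sets did not point 1 way, at −0.025, 0.053 and 0.14. A second of them, 11731039_s_at, read above background on all 6 arrays and the third, 11748229_x_at, on 5 of 6.

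IL2RA (CD25), the chain that raises the affinity of the IL-2 receptor and has only a short cytoplasmic tail, was below the highest background probe set on every array. Its brightest probe set, 11739955_a_at, read 5.45, 5.85 and 5.85 after BATF3 siRNA, against 5.13, 6.29 and 5.30 after control siRNA. Control siRNA replicate 2 was the highest of the 6 values. The change was +0.14 (SE 0.26; limma adjusted p = 0.946), +0.50 without control siRNA replicate 2 and −0.078 without control siRNA replicate 1. The interval of the ratio, 0.731 to 1.67, was wider than that of any of the 7 chains above background. The other two probe sets read 2.68 to 3.86 over all arrays, with changes of −0.11 and 0.014.

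The receptors for IL-4 and IL-13 share IL4R, which activates STAT6. IL4R read 10.00, 9.90 and 9.92 after BATF3 siRNA, against 9.79, 10.16 and 10.02 after control siRNA. The BATF3 siRNA values lay within the range of the control siRNA values. The change was −0.049 (SE 0.11), a ratio of 0.967 (95% confidence interval 0.816 to 1.14; limma adjusted p = 0.954). Its 5 probe sets ran from −0.21 to 0.019, with 2 of them above background on all 6 arrays. The second of these, 11742511_a_at, had a change of 0.0013.

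IL13RA1, which binds IL-13 and forms a receptor for IL-4 and IL-13 with IL4R, read 10.45, 10.29 and 10.40 after BATF3 siRNA. The control siRNA arrays read 10.62, 10.22 and 10.64. Control siRNA replicates 1 and 3 were above all BATF3 siRNA arrays, and control siRNA replicate 2 was below them. The change was −0.11 (SE 0.12), a ratio of 0.926 (95% confidence interval 0.762 to 1.12; limma adjusted p = 0.904). All 4 probe sets, which are not independent, were above background on all 6 arrays and lower after BATF3 siRNA, by −0.18 to −0.11, with overlapping groups in each. The change of the gene was −0.25 without control siRNA replicate 2 (limma adjusted p = 0.587), −0.036 without control siRNA replicate 3 and −0.049 without control siRNA replicate 1. It was −0.038 with the background as a block, which sets BATF3 siRNA replicate 1 alone against the controls.

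**Figure D2:**
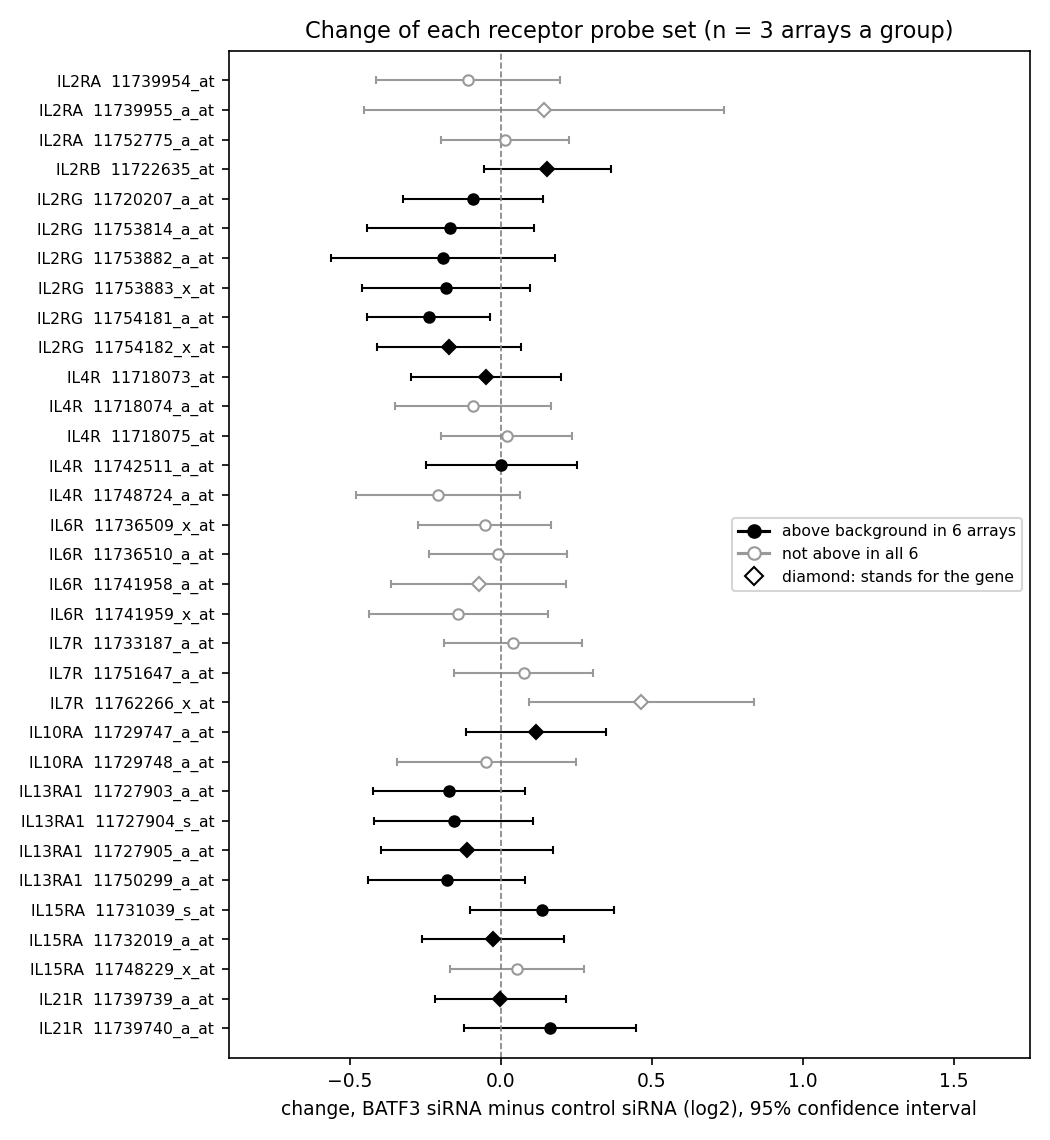
Change of each of the 33 receptor probe sets, BATF3 siRNA minus control siRNA, on the log2 axis, with 95% confidence intervals from the limma fit over all probe sets (3 arrays a group). Filled symbols were above background on all 6 arrays, open grey symbols were not, and diamonds stand for the gene. The 6 IL2RG and 4 IL13RA1 points lie left of 0, and the interval excludes 0 for 11754181_a_at of IL2RG and 11762266_x_at of IL7R alone.

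IL21R, the private chain of the IL-21 receptor, read 10.34, 10.29 and 10.21 after BATF3 siRNA, against 10.16, 10.38 and 10.30 after control siRNA. The groups overlapped throughout, and the change was −0.0014 (SE 0.094), a ratio of 0.999 (95% confidence interval 0.863 to 1.16; limma adjusted p = 0.999). A second probe set, 11739740_a_at, read 9.39, 9.71 and 9.42 after BATF3 siRNA, against 9.21, 9.55 and 9.28 after control siRNA. Its difference was 0.16 (SE 0.13; adjusted p = 0.840, limma over all probe sets), and replicate 2 was the highest array of both siRNAs there.

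IL10RA, the chain that binds IL-10 and signals with IL10RB through STAT3, read 7.85, 7.58 and 7.70 after BATF3 siRNA, against 7.57, 7.68 and 7.53 after control siRNA. Replicate 1 of BATF3 siRNA was the highest array, and replicate 2 lay among the control siRNA values. The change was +0.12 (SE 0.10), a ratio of 1.08 (95% confidence interval 0.927 to 1.27; limma adjusted p = 0.863). It was 0.044 without BATF3 siRNA replicate 1 and 0.26 with the background as a block, a fit that sets that array against the controls. The second probe set, 11729748_a_at, stayed below background on all arrays (5.16 to 5.65) with a change of −0.049.

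IL7R, the ligand-binding chain of the IL-7 receptor and, with CRLF2, of the receptor for TSLP, is best known from T cells and early lymphocytes. It had the largest change of the 10 chains, from a probe set below background on every array. That probe set, 11762266_x_at, read 4.19, 3.73 and 4.16 after BATF3 siRNA, against 3.86, 3.52 and 3.31 after control siRNA. The groups overlapped, since BATF3 siRNA replicate 2 lay below control siRNA replicate 1. The change was +0.47 (SE 0.16), with an unadjusted p of 0.019 and a limma adjusted p of 0.612. It ran from 0.34 to 0.62 with 1 array left out. It was 0.63 with the background as a block, where BATF3 siRNA replicate 1 alone is set against the controls.

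The other two IL7R probe sets, also below background, had changes of 0.041 and 0.075. They read 2.44 to 3.84 over all arrays. With 11733187_a_at in place of the _x_at probe set, a choice made after seeing the data, the change of the gene was 0.041 (limma adjusted p = 0.954). The size of the IL7R change thus depends on which probe set is read.

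IL6R, which binds IL-6 and signals through IL6ST (gp130), was also below background with all 4 of its probe sets. The brightest read 4.25, 4.10 and 3.95 after BATF3 siRNA, against 4.19, 4.38 and 3.96 after control siRNA. The groups overlapped, and the change was −0.073 (SE 0.13), a ratio of 0.951 (95% confidence interval 0.780 to 1.16; limma adjusted p = 0.943). The 4 probe sets ranged from −0.14 to −0.0096.

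Across the 33 probe sets 12 changes were positive and 21 negative, with a median of −0.049 against −0.0036 over all probe sets. Limma called 0 of 33, where 0.0101% of all probe sets were called, and the smallest adjusted p was 0.634. At an unadjusted p under 0.05 there were 2, 1 higher and 1 lower, against 7.16% of all probe sets. Several probe sets of 1 gene share transcripts, so these counts are not counts of independent measurements. Of the 33, 18 were above background on all 6 arrays, and they came from the 7 chains named above.

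**Figure D3:**
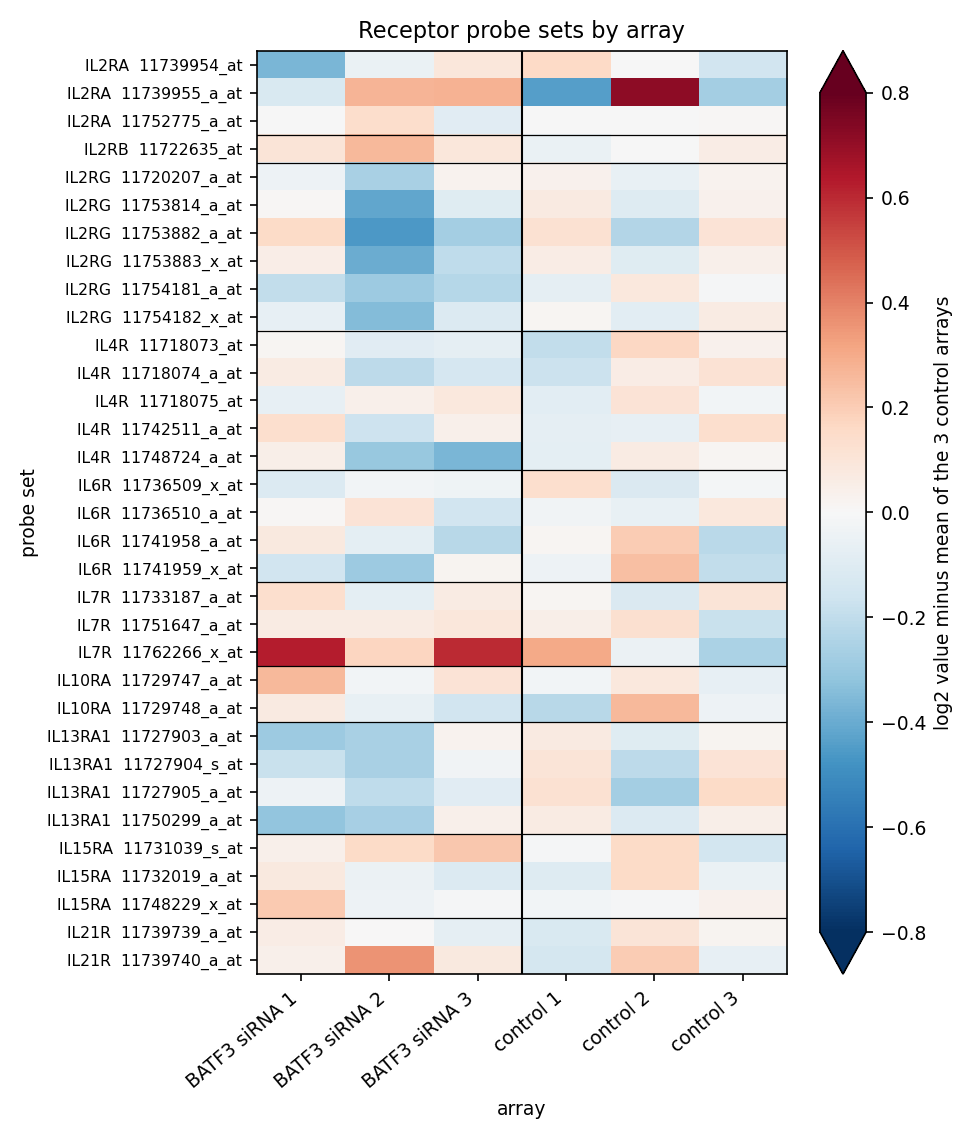
Heat map of the 33 receptor probe sets (rows, grouped by gene) on the 6 arrays (columns, BATF3 siRNA left of control siRNA), coloured by the log2 value minus the mean of the 3 control siRNA arrays. All 6 IL2RG probe sets are lowest in BATF3 siRNA replicate 2, 11727905_a_at of IL13RA1 is lowest in replicate 2 of each siRNA, and 11739955_a_at of IL2RA is highest in control siRNA replicate 2 (6.29).

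The promoters were read because BATF3 with a JUN partner binds the AP-1 sequence, and the sequences shown are those with this motif near a start. RefSeq windows for GRCh38.p14 were matched for 9 of the 10 chains (not IL2RB), 12 windows in all, 4 of them for IL15RA. The motif TGAGTCA, searched on both strands (TGACTCA on the other), was present in windows of 3 chains, IL10RA, IL15RA and IL6R. It was present in 6.05% of the 27305 genes with a window, counting a gene with several windows once. The 250 bases before the start are shown for IL10RA, which has the motif at −73 to −67 from the start, and for the IL15RA windows with a distinct match. Lower case marks the sequence as read 5′ to 3′ on the gene's strand and capitals mark the motif. For IL6R, whose match lies after the start at 38 to 44, only 27 bases are shown.
IL10RA, chr11:117989695-117989944, plus strand: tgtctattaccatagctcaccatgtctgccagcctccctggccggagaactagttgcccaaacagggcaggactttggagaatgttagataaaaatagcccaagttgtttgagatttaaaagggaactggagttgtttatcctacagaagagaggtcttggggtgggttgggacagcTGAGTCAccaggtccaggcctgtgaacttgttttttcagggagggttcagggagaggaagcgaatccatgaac
IL15RA, chr10:5977612-5977861, minus strand: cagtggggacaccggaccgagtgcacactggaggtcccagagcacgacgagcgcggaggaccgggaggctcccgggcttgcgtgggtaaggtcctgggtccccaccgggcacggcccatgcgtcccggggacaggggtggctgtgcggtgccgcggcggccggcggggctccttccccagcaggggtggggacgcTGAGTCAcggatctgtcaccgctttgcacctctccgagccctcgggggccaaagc
IL15RA, chr10:5968929-5969178, minus strand: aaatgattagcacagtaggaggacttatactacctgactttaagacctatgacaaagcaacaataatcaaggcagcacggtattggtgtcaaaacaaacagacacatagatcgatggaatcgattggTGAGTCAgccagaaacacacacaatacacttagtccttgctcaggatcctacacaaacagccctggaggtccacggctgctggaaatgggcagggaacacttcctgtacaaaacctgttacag
IL6R, chr1:154405366-154405392, plus strand: accgtccgccgctcTGAGTCAtgtgcg

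The IL15RA motifs lie at −55 to −49 in the window shown first and at −123 to −117 in the window shown second, each counted from its own start. A further IL15RA window overlaps the first and holds the same match. In the second window the motif is followed after 4 bases by GAAA, a spaced form in which BATF and IRF proteins are known to bind side by side. That form, TGAGTCA with any 4 bases and then GAAA, contains the AP-1 motif and was in 6 of 35116 windows (0.0171%), searched on both strands, and its version with TGACTCA was in 14 (0.0399%). The joined forms, GAAA directly before TGAGTCA or TGACTCA, were in none of the 12 receptor windows, and in 15 of all windows each (0.0427%). TGACGTCA, the site of CREB and ATF factors, was in none of the 12 either, and in 1.85% of all windows. The changes of the 3 chains with the AP-1 motif were +0.12 for IL10RA, −0.025 for IL15RA and −0.073 for IL6R, and none passed the threshold. A match describes these letters in these windows and is not a measured binding site.

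The partners of the receptor chains were read from the same fit. IL6ST, the signalling chain for IL6R, was above background on all 6 arrays, with log2 means of 7.94 ± 0.13 in BATF3 siRNA arrays and 8.02 ± 0.079 in control siRNA arrays (SD, n = 3 each) and a difference of −0.079. IL10RB, the partner of IL10RA, was above background on all arrays as well, with a change of 0.026. IL13RA2, a second IL-13 receptor known as a decoy, was below background on all arrays. CRLF2, the TSLP partner of IL7R, was above background on 2 of 3 BATF3 siRNA arrays and 1 of 3 control siRNA arrays. Its log2 mean was not higher after BATF3 siRNA, at 7.07 against 7.19, and the background level was lower on BATF3 siRNA replicates 2 and 3. IL4R, IL2RG and IL13RA1, IL10RA and IL10RB, IL15RA and IL2RB, and IL21R, chains of the receptors for IL-4, IL-10, IL-13, IL-15 and IL-21, each read above background on all 6 arrays. For the receptors of IL-6 and IL-7 the ligand-binding chain was not, and for the high-affinity IL-2 receptor IL2RA was not. The arrays measure mRNA and say nothing of protein at the cell surface.

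Limma called 0 genes in each of 4 other lists: other receptor chains, ligands, kinases and STAT factors, and feedback and target genes. In the other receptor chains 14 of 40 measured genes had a positive change and 26 a negative one (median −0.024). The 2 with the smallest p were IL17RA, the shared chain of IL-17 receptors, at −0.33 (SE 0.11; limma adjusted p = 0.579), and IL12RB1, a chain of the IL-12 and IL-23 receptors, at −0.32 (SE 0.11; limma adjusted p = 0.609). Their groups did not overlap, as in 8 of the 40 genes, where 12.1% of all genes had no overlap. IL17RA read above background on 2 of 3 BATF3 siRNA arrays and 1 of 3 control siRNA arrays, and IL12RB1 on none of the 6. The IL17RA values were nonetheless lower after BATF3 siRNA, with log2 means of 6.82 against 7.15. The highest background probe set read 6.68 and 6.73 on BATF3 siRNA replicates 2 and 3, below its level on the control siRNA arrays. At an unadjusted p under 0.05 there were 3 higher and 3 lower, against 7.15% of all genes.

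Of the ligands of these receptors 9 were measured, and only IL6 was above background on all 6 arrays. Its log2 mean was 8.15 ± 0.13 in BATF3 siRNA arrays and 8.05 ± 0.14 in control siRNA arrays (SD, n = 3 each), 0.11 apart. IL15 was above background on 3 of 3 BATF3 siRNA arrays and 1 of 3 control siRNA arrays, and IL13 on 2 of 3 and 1 of 3. The background level was lower on BATF3 siRNA replicates 2 and 3. The smallest p-values belonged to IL10, at 0.37 (SE 0.10; limma adjusted p = 0.493), and IL7, at −0.28 (SE 0.084; limma adjusted p = 0.528), both below background on every array. They were the 2 of 9 ligands without overlap between groups, where 12.1% of all genes had none. The list had a median of 0.082, with 5 positive and 4 negative changes.

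All 9 measured kinases and STAT factors were above background on all 6 arrays. JAK1, the kinase of IL2RB and IL4R, was at −0.11 (SE 0.088; limma adjusted p = 0.849), and JAK3, the kinase of IL2RG, was at −0.042 (SE 0.091; limma adjusted p = 0.954). STAT6, the factor of IL-4 and IL-13, was at −0.044. STAT5B, which acts after IL-2, IL-7 and IL-15, had the smallest p, at −0.38 (SE 0.10; limma adjusted p = 0.475), and STAT4 followed at 0.23 (SE 0.088; limma adjusted p = 0.642). The list median was −0.037, with 3 positive and 6 negative changes. The groups did not overlap for 3 of the 9, STAT5B and JAK1 (lower) and STAT4 (higher), against 12.1% of all genes.

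The feedback and target genes had 11 positive and 3 negative changes among 14 measured genes, with a median of 0.055. PIM2, a survival kinase, was at 0.42 (SE 0.11; limma adjusted p = 0.459) with no overlap between groups. That held for 3 of the 14 genes, against 12.1% of all genes. SOCS2, an inhibitor of cytokine signalling that STAT5 induces, was at −0.60 (SE 0.20; limma adjusted p = 0.590) and below background on every array. At an unadjusted p under 0.05 there were 3 higher and 1 lower among the 14, against 7.15% of all genes.

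**Figure D4:**
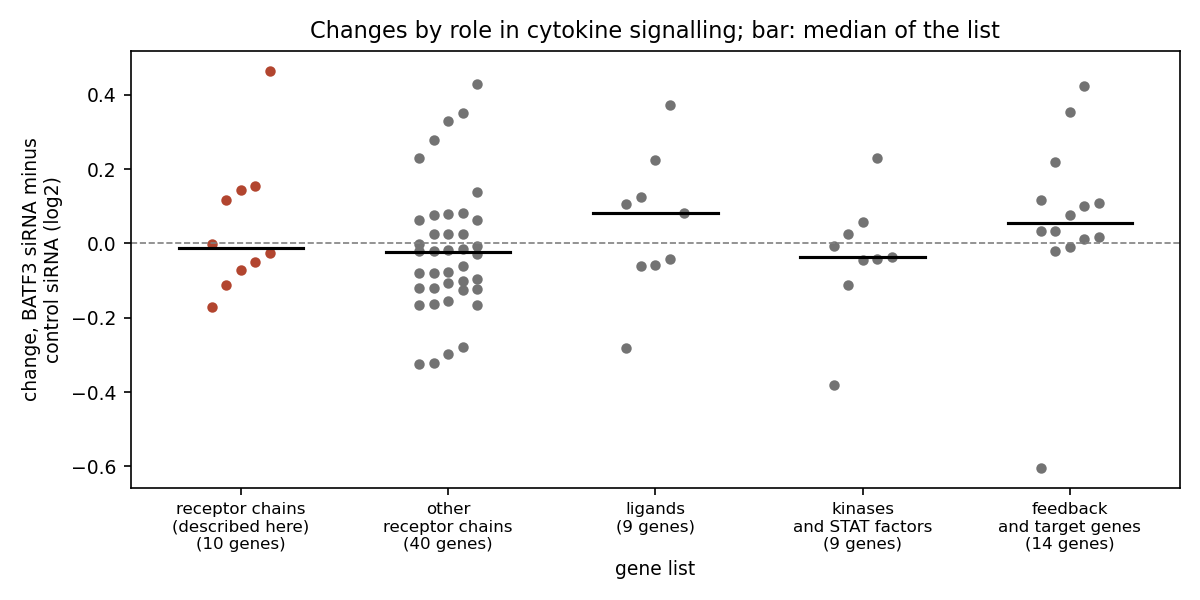
Change of each gene, BATF3 siRNA minus control siRNA (log2), by role in cytokine signalling, with a bar at the median of each list. The medians lie between −0.037 and 0.082. None of these genes passed the threshold, and the receptor chain farthest from 0 is IL7R at 0.47, read below background.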

How the data were processed

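Biotin-labelled cRNA from L428 total RNA was hybridised to Affymetrix PrimeView arrays, 3 for each siRNA. The authors deposited 1 log2 value per probe set and array, and that the logarithm has base 2 was inferred from the values' range. Per the submitters' processing notes the values were made with the affy package for R, in no stated version. The background correction, normalization and summary method are not given in the sources used. The log2 values entered the fit unaltered.

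The platform annotation assigned a single symbol to 45278 probe sets. Of several for 1 gene, the brightest by its mean across the 6 arrays was used, which left 18244 genes. The fit used limma 3.58.1 (R 4.3.3), with lmFit and eBayes, BATF3 siRNA minus control siRNA, two-sided and without covariates. The Benjamini-Hochberg adjustment ran over all genes, and a call needed an adjusted p under 0.05. A second fit of the same kind took all 49393 probe sets other than controls, and values given for a further probe set of a gene come from it. Both rest on 4 residual degrees of freedom, and the number of arrays limits the precision. With 3 arrays a group, an exact permutation test has a smallest two-sided p of 0.1.

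A probe set was described as above background on an array where it exceeded that array's highest background probe set, whose probes have 25 G and C bases. The base content of the receptor probes was not examined, so a value below that level gives a bound and not an absence. Promoter windows of 300 bases, from 250 before to 50 after each start, were RefSeq's for GRCh38.p14.

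All 10 receptor chains are named. From each of the other pathway lists, the text names called members, otherwise the 2 with the smallest p, and partners or ligands of the receptor chains. The members, the lists and the alternatives were chosen with earlier results of these data known. The fit was tested on simulated data. List members with no probe set of their own were not analysed here. Alternatives were other normalizations, leaving out low genes or single arrays, other probe sets per gene, weighted arrays, another prior, another threshold, and blocks for replicate number and for background.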

Additional observations from a re-analysis of the deposited data

How the results depend on the processing

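The count of 0 called receptor chains held under all 20 alternatives run. At an unadjusted p under 0.05 there were 4 chains with array weights, where 3312 of 18244 genes met that level. Without control siRNA replicate 2 there were 2 chains, where 1446 genes met it. When each probe set was tested, 2 of 33 receptor probe sets met it, against 3538 of 49393. The main fit had 1 chain, against 7.15% of all genes, and the other fits had 0 or 1. The count of 7 chains above background was the same in all 8 alternatives run for it. Each of those 8 used a lower cut, any probe set of the gene or 1 array fewer. They could only keep or raise the count, so they do not test whether it could fall. Of the 185 refitted changes of single chains, 164 kept their direction and 0 passed the threshold (limma adjusted p 0.138 to 1). Some alternatives could not alter a change: leaving out low genes, testing each probe set, another prior and the block for replicate number. They returned the same change as the main fit, so their direction was fixed in advance. IL2RB, IL2RG, IL7R and IL13RA1 kept their direction throughout. The other 21 of the 185 changes had the opposite sign, and the cause was not tested. With median centring IL21R was at 0.020. With the mean of all probe sets IL15RA was at 0.055 and IL21R at 0.080, and with the most variable probe set IL10RA was at −0.049, IL15RA at 0.14 and IL21R at 0.16. Array weights, which gave control siRNA replicate 3 the largest weight (3.85), put IL6R at 0.034. With the background as a block IL2RA was at −0.12, IL4R at 0.014, IL6R at 0.080, IL15RA at 0.080 and IL21R at 0.061. That fit sets BATF3 siRNA replicate 1 alone against the controls. With each array left out in turn the change ran from −0.078 to 0.50 for IL2RA, −0.15 to 0.034 for IL4R, −0.18 to 0.029 for IL6R, −0.077 to 0.052 for IL15RA and −0.062 to 0.049 for IL21R.

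The count of genes called by limma, 3 with all arrays, was 9 among genes above the median level, 5 with the most variable probe set, 5 when each probe set was tested, 25 with array weights, 12 with an intensity trend and robust prior, 0 with the background as a block (1011 at an unadjusted p under 0.05) and 6 at an adjusted p under 0.1. With 1 array left out it ran from 0 to 2, being 0 when BATF3 siRNA replicate 3 (852 at an unadjusted p under 0.05) or control siRNA replicate 2 (1446) was left out. It was 1 when replicate 1 of BATF3 siRNA or replicate 3 of control siRNA was left out. The count of called probe sets, 5 with all arrays, ran from 0 to 2 with 1 array left out; it was 2 without BATF3 siRNA replicate 2 and 0 without any of the others (2303 to 5426 at an unadjusted p under 0.05).

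With the replicate number as a block limma called 3 genes, 0 receptor chains and 5 probe sets, and the smallest adjusted p among the chains was 0.515. Deviations of same-numbered arrays correlated at 0.029, 0.15 and −0.025 across genes, so the numbers were not taken to pair the arrays. An array correlated best with its own number for replicate 2 alone. The number of arrays and, for IL2RA, IL6R and IL7R, the background limit these results.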

Other observations

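Where 42.8% of all genes read above background on all 6 arrays, 12 of the 40 other receptor chains measured did so. They include IL5RA, known from eosinophils, with log2 means of 10.76 ± 0.095 in BATF3 siRNA arrays and 10.91 ± 0.052 in control siRNA arrays (SD, n = 3 each), IL1R2 (a decoy receptor for IL-1), IL18R1 (a chain of the IL-18 receptor) and IL1RL1 (the receptor for IL-33). These 4 were chosen after their values were seen. CSF2RB, IL18RAP and IL1RAP, among the 28 chains of the list that did not do so, were below the highest background probe set on all 6 arrays. Whether any of the 4 forms a working receptor was not tested. IL1RL1 had the largest positive change of the 4, at 0.35 (SE 0.13; limma adjusted p = 0.612), without overlap between groups. IL5RA, at −0.16, had no overlap either and was lower after BATF3 siRNA. No overlap was seen in 8 of the 40 chains, against 12.1% of all genes.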
